A study of Mus musculus with 10 samples.

Results

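Ccn1, Ccn2, Ankrd1, Amotl1, Amotl2, Lats2, Axl, Ajuba, Crim1 and Ptpn14 are genes reported as targets of the transcriptional co-activator YAP and its DNA-binding partners, the TEAD factors. These 10 genes were taken by name, not by a threshold on measured values, from 36047 genes in the files. The choice was made with earlier results of these data known, so the list is not independent of them. All 10 passed the filter on low counts. Poly-A RNA had been sequenced from hepatic stellate cells, which store vitamin A in the liver, of male C57BL/6 mice. Both groups consisted of quiescent cells that were isolated, cultured for 5 h and then kept in starving medium for 4 h, 5 libraries with a control treatment that the labels do not describe further (controls 1 to 5) and 5 libraries with recombinant mouse amphiregulin at 500 ng/mL (Areg 1 to 5). Amphiregulin binds and activates the receptor for epidermal growth factor. Nothing in the labels ties a library to its own animal or culture, and the p-values therefore reflect library-to-library spread that may be technical.

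YAP and its relative TAZ do not bind DNA themselves and reach their targets through TEAD factors. The Hippo kinases, a chain that ends in LATS kinases, phosphorylate YAP and TAZ and keep them out of the nucleus. Several targets encode proteins that restrain YAP in turn, among them LATS2, the angiomotin-like proteins and PTPN14, so that the list holds both outputs and feedback regulators. In stellate cells YAP is known for its activation when the cells are cultured or the liver is injured.

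Promoter windows show the sequence that the TEAD factors are known to recognise, GGAATG or its complement CATTCC. RefSeq's table (GRCm38.p6), with windows of 250 bases before to 50 bases after each start, matched 9 of the 10 genes, and Ccn2 was not matched. The core motif GGAATG, searched on both strands, was found for 8 of these 9 genes (Amotl1 is the exception), while 14.7% of all 32851 windows in the table hold it. In the 250 bases before the start alone, it was found for 7 of 9 genes, against 12.6% of all windows. Counted by window, 8 of the 10 windows of these genes hold it, and 7 hold it before the start. Capitals mark the motif in the sequences, which are given 5' to 3' on the gene's strand, whole for the 250 bases before the starts of Ccn1, which rose, and Ptpn14, which fell, and as the motif with 12 bases on either side elsewhere, with both matches of Ajuba in 1 stretch.
Ccn1 (chr3:145649986-145650235, minus strand): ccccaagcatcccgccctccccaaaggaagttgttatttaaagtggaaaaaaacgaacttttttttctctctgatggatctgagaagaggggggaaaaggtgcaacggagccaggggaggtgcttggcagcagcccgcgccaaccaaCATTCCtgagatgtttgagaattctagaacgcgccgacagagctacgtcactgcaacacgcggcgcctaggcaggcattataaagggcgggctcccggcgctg
Ankrd1, outer match (chr19:36120037-36120066, minus strand): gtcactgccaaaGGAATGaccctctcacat
Ankrd1, inner match (chr19:36119950-36119979, minus strand): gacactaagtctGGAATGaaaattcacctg
Ptpn14 (chr1:189728018-189728267, plus strand): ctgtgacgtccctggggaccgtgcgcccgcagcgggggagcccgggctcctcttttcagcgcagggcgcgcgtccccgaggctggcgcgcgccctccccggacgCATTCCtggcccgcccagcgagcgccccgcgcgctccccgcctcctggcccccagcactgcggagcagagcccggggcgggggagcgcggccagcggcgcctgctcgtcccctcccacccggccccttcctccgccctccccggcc
Amotl2 (chr9:102717727-102717756, plus strand): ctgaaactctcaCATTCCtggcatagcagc
Lats2 (chr14:57746102-57746131, minus strand): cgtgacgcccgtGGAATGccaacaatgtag
Ajuba (chr14:54577808-54577859, minus strand): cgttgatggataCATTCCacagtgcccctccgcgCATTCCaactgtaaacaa
Axl (chr7:25788949-25788978, minus strand): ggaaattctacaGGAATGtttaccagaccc
Crim1 (chr17:78200157-78200186, plus strand): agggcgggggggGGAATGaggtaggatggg
The longer form GGAATGT, which contains the core, was found for Ccn1, Axl, Amotl2 and Ajuba, 4 of 9 genes, and in 3.85% of all windows. The AP-1 motif TGANTCA and the CArG box of the serum response factor, both searched on both strands, were found for 0 of 9 genes, and in 7.81% and 1.63% of all windows. The stretches of Ankrd1, Amotl2 and Lats2 overlap exons of GENCODE transcripts, among them the main transcript of each. Those of Ankrd1 and Amotl2 hold matches that were counted above as before the RefSeq start. The motif was present at genes that rose, at the gene that fell and at genes that passed no test, and a match of these letters is not a measured binding site.

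**Figure D1:**
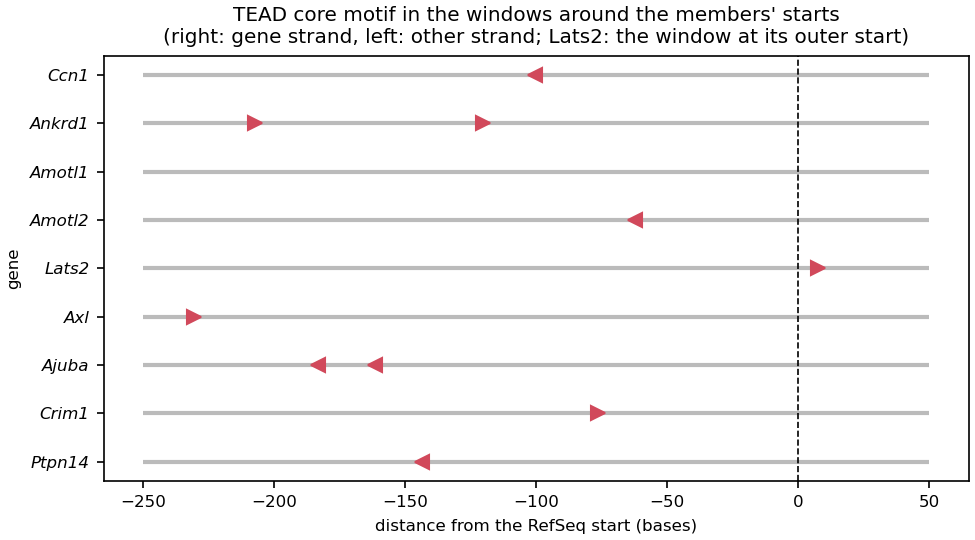
Position of the TEAD core motif (triangles, pointing right on the gene's strand and left on the other strand) in the window around the RefSeq start of 9 genes, with the distance from the start in bases on the horizontal axis. The matches lie between 233 bases before and 10 bases after the start, and the Amotl1 line carries none.

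With Areg, the matricellular protein genes Ccn1 and Ccn2 and the ankyrin repeat gene Ankrd1 rose 1.60-fold, 2.01-fold and 1.77-fold, and the phosphatase gene Ptpn14 fell slightly. The other 6 genes did not pass the test. In the edgeR quasi-likelihood test over 13362 genes, at an adjusted p under 0.05, 16.7% of all genes tested were called, 8.34% higher and 8.32% lower. Of the 10 genes, 3 were called higher and 1 lower, with a median log2 fold change of -0.03 against -0.01 over all genes tested. Without controls 3 and 4, 5 of the 10 were called, 3 higher and 2 lower, against 15.9% of all genes, 8.38% higher and 7.53% lower. With the trend in length and GC content over genes removed, 4 were called, all higher, against 13.6% of all genes, 8.28% higher and 5.27% lower. Levels are given as CPM, the estimated count scaled to the library total with TMM factors. The CPM ranges of the groups did not overlap for 5 of the 10 genes, with Areg above in 3 and below in 2, against 14.7% of all genes, 7.64% above and 7.06% below. In bulk RNA, fewer cells of a type and less RNA per cell cannot be told apart.

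**Figure D2:**
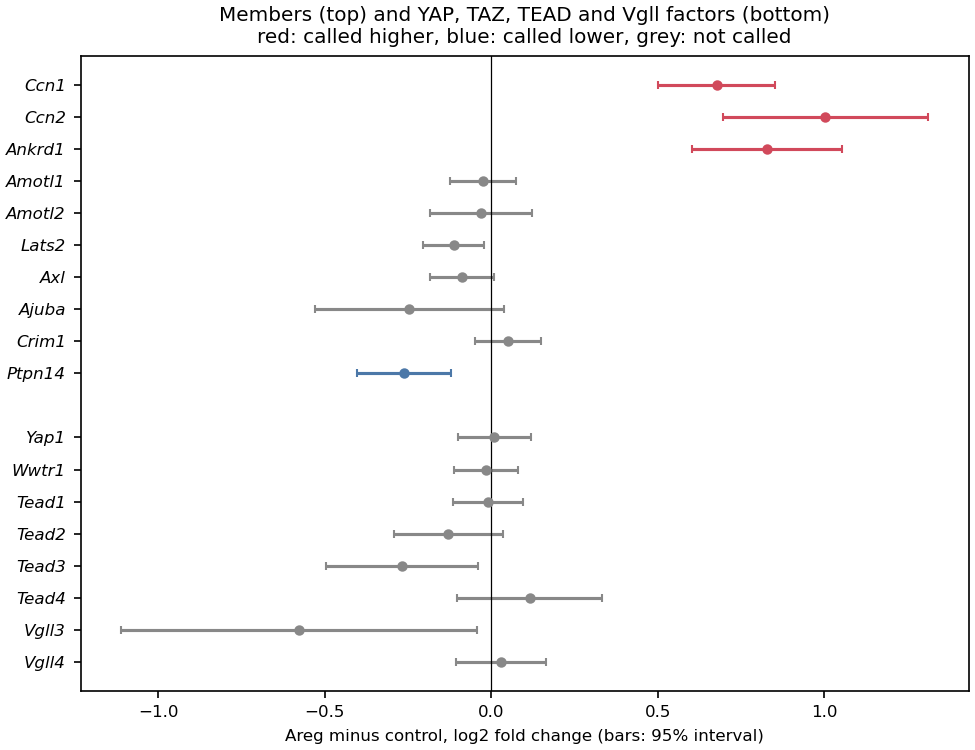
Log2 fold change, Areg minus control, of the 10 genes and of 8 YAP, TAZ, TEAD and Vgll factor genes, with 95% intervals (n = 5 libraries in each group). Red marks genes called higher, blue genes called lower and grey the rest. Intervals of Ccn1, Ccn2 and Ankrd1 start at 0.50 or above, the interval of Ptpn14 ends at -0.12, and those of the other genes reach to within 0.05 of 0 or across it.

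Total estimated counts were 10125184 to 17566891 in the controls and 14365027 to 20057962 in the Areg libraries. Controls 3 and 4, with the lowest totals of all libraries, had principal component 1 scores of 46.6 and 28.6, where the other libraries had -16.5 to 0.455, and results are given with and without them where this matters. Of the 12 stellate cell markers, all were tested, 0 were higher and 5 lower, among them the retinol-storage enzyme gene Lrat at a log2 difference of -0.47, and the list had a summed level of 6867 to 7398 CPM in the controls and 6330 to 6494 CPM with Areg. Among 8 liver endothelial markers 0 were called, and their summed level was 4613 to 5034 CPM in the controls and 4634 to 4762 CPM with Areg, led by the VE-cadherin gene Cdh5 (2744 ± 121 and 2585 ± 23.0 CPM; mean ± SD, n = 5 each, as for all such pairs). The 8 hepatocyte markers summed to 1098 to 1861 and 1244 to 1547 CPM (1 higher, 1 lower), and the 8 macrophage markers to 507 to 559 and 502 to 547 CPM (0 called). Mesothelial markers summed to 3.99 to 7.61 and 4.48 to 6.69 CPM, smooth muscle and portal fibroblast markers to 31.3 to 34.7 and 33.8 to 35.4 CPM, and lymphocyte markers to 23.8 to 33.96 and 29.3 to 33.5 CPM, with 0 called in each list. Of these 3 lists, in the same order, only 3 of 6, 5 of 8 and 1 of 6 markers were tested. Cholangiocyte markers summed to 40.5 to 50.7 and 82.3 to 95.6 CPM, nearly all of it Spp1, which was called higher, and 5 of the 7 had means under 1 CPM. Over all genes tested, 8.34% were called higher and 8.32% lower. No marker of any list was at 0 in every library. The libraries held transcripts of endothelial cell, hepatocyte and macrophage markers beside those of stellate cells, and their part in the results was not tested.

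Ccn1 and Ccn2 encode secreted proteins of the CCN family that bind integrins and heparan sulfate in the matrix. Ccn1 (ENSMUSG00000028195.4, chromosome 3, 145646976 to 145649981, minus strand, GRCm38) had 134, 130.4, 148, 176 and 137 CPM in controls 1 to 5. It had 211, 237, 225, 269 and 218 CPM in Areg 1 to 5. Every Areg library lay above every control, and control 4 was the highest control. The control mean was 145 ± 18.5 CPM and the Areg mean 232 ± 22.8 CPM, a log2 difference of 0.68 ± 0.08 (SE; edgeR adjusted p = 0.000152). Without controls 3 and 4 it was 0.79 (edgeR adjusted p = 3.02e-05).

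Ccn2 (ENSMUSG00000019997.11, chromosome 10, 24595442 to 24598683, plus strand), which encodes connective tissue growth factor, had 178, 172, 161, 234 and 166 CPM in controls 1 to 5. The Areg libraries 1 to 5 had 286, 393, 344, 454 and 349 CPM. The groups did not overlap, and control 4 was the highest control and Areg 1 the lowest Areg library. The control mean was 182 ± 29.6 CPM and the Areg mean 365 ± 62.4 CPM, a log2 difference of 1.00 ± 0.14 (SE; edgeR adjusted p = 0.00147). Without controls 3 and 4 it was 1.09 (edgeR adjusted p = 0.00545). Ccn2 was also the most variable of the 10 genes among the Areg libraries, with a coefficient of variation of 17.1%, while that of Crim1 was 2.17%. Gm15270, a processed transcript, overlaps Ccn2 on the opposite strand and was not analysed here.

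Ankrd1 (ENSMUSG00000024803.9, chromosome 19, 36111961 to 36120099, minus strand) encodes an ankyrin repeat protein of muscle sarcomeres and nuclei that is widely used as a readout of YAP activity. It had 12.5, 11.8, 12.8, 15.6 and 9.58 CPM in controls 1 to 5. It had 19.7, 24.2, 20.8, 24.4 and 20.95 CPM in Areg 1 to 5, all above the highest control. The control mean was 12.5 ± 2.16 CPM and the Areg mean 22.01 ± 2.12 CPM, a log2 difference of 0.83 ± 0.11 (SE; edgeR adjusted p = 0.000123). Without controls 3 and 4 it was 0.96 (edgeR adjusted p = 1.25e-06). These values rest on 128 to 472 estimated counts per library, fewer than the 1480 to 4636 of Ccn1.

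Control 4 was the highest control, Areg 1 the lowest Areg library and Areg 4 the highest for Ccn1, Ccn2 and Ankrd1 alike. Some of these extremes were shared with other genes, since Lats2 and Ptpn14 also had their highest Areg value in Areg 4, Crim1 had its lowest in Areg 1, and Cnn2, an actin-binding protein gene outside the 10, was highest in control 4 and Areg 4. Deviations of Ccn2 from its mean over the 10 libraries, on the log2 CPM scale, were -0.13 in control 4, 0.17 in Areg 1 and 0.83 in Areg 4, and those of Ankrd1 were -0.08, 0.26 and 0.57. The 3 genes thus shared their highest control and both their lowest and highest Areg library.

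**Figure D3:**
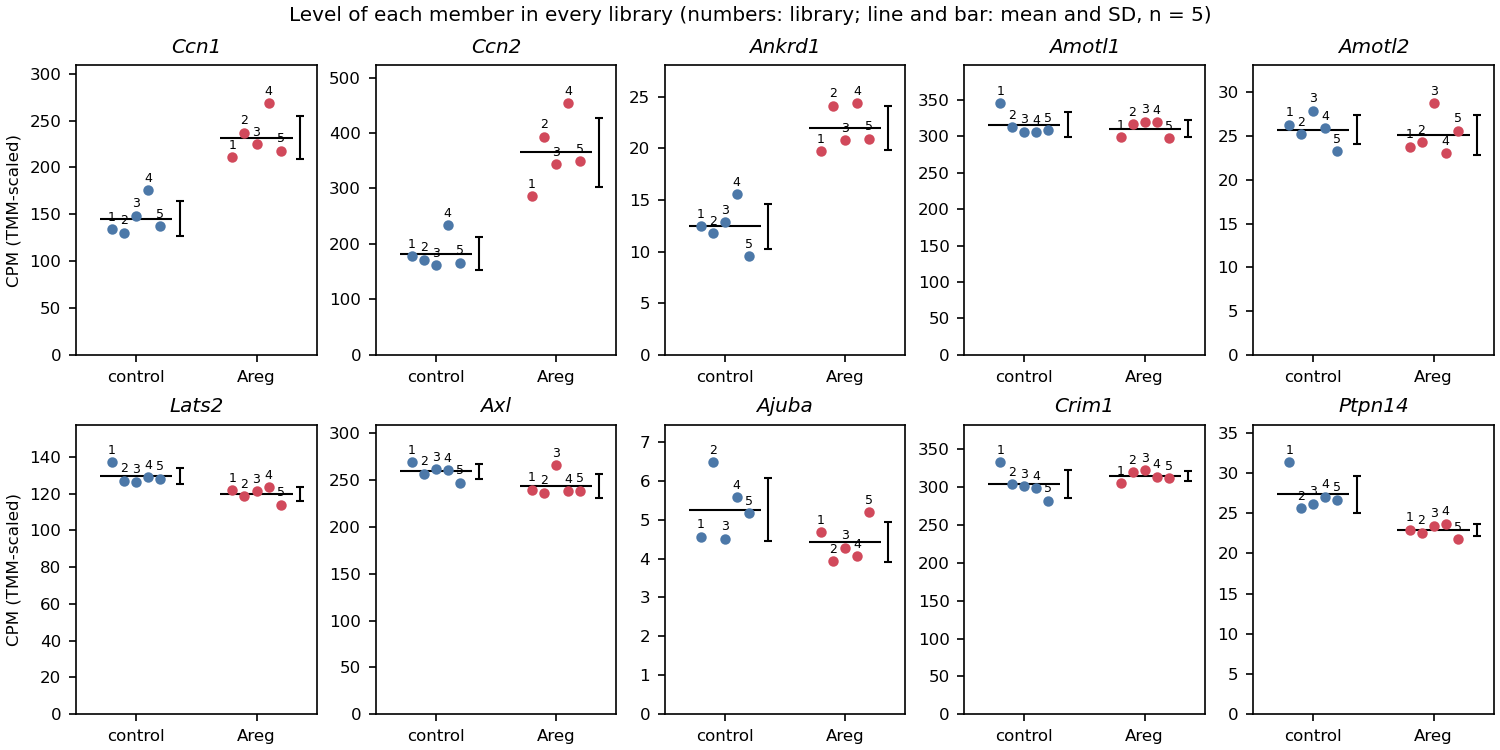
Level of each of the 10 genes in CPM (vertical axis from 0, TMM-scaled) in the 5 control and 5 Areg libraries, with the library number beside each point, the mean as a line and the SD as a bar. For Ccn1, Ccn2 and Ankrd1 all Areg points lie above all control points, and for Lats2 and Ptpn14 all lie below.

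**Figure D4:**
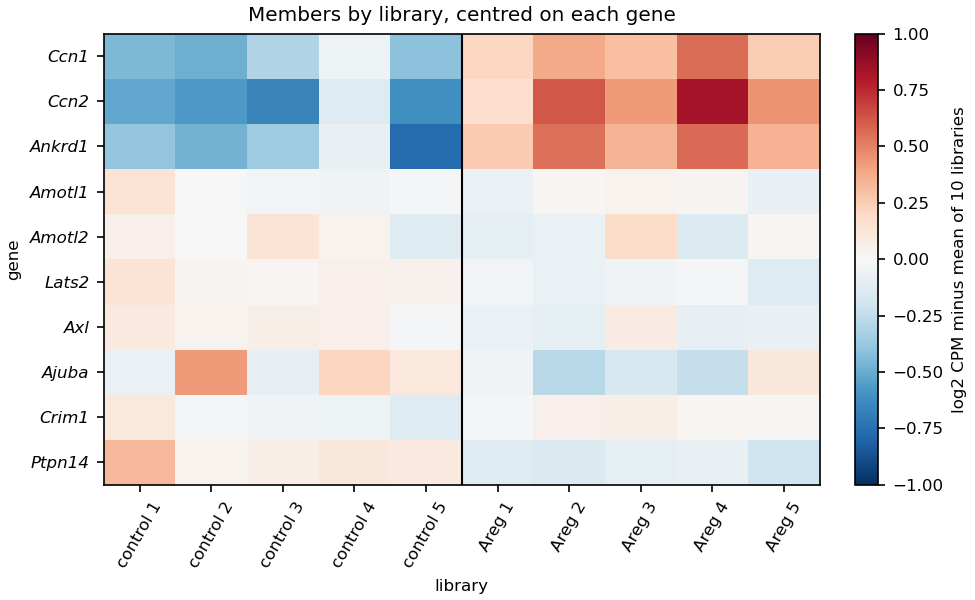
Log2 CPM of each gene in each library minus the gene's mean over 10 libraries (colour scale from -1 to 1, red above and blue below the mean). The rows of Ccn1, Ccn2 and Ankrd1 change colour between the groups, palest in control 4 among the controls, and the rows of the other genes stay within 0.20 of the mean apart from 4 libraries of Ajuba and control 1 of Ptpn14.

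Of the 5 genes whose products restrain YAP or bind its kinases, Ptpn14 fell and the others did not pass. Ptpn14 (ENSMUSG00000026604.17, chromosome 1, 189728268 to 189876695, plus strand) encodes a non-receptor tyrosine phosphatase that binds YAP and favours its retention in the cytoplasm. It had 31.3, 25.6, 26.2, 27.02 and 26.7 CPM in controls 1 to 5 and 22.9, 22.6, 23.4, 23.7 and 21.8 CPM in Areg 1 to 5. All Areg libraries lay below all controls, and control 1 stood above the rest. The control mean was 27.3 ± 2.28 CPM and the Areg mean 22.9 ± 0.753 CPM, a log2 difference of -0.26 ± 0.07 (SE; 95% interval -0.40 to -0.12, edgeR adjusted p = 0.0135). Per length the groups overlapped, at 4.76 to 6.77 TPM (kallisto's length-scaled abundance) in the controls and 3.92 to 5.90 TPM with Areg. The call was lost in 5 of 25 alternatives, those that adjust for transcript length or for length and GC content, with log2 fold changes of -0.17 to -0.12. Its main transcript has 10746 bases, the longest main transcript among the 10 genes.

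Lats2 (ENSMUSG00000021959.16, chromosome 14, 57689662 to 57758388, minus strand) encodes the kinase that phosphorylates YAP and TAZ. It had 137, 127, 127, 129 and 128 CPM in controls 1 to 5 and 122, 119, 121, 124 and 114 CPM in Areg 1 to 5. The groups did not overlap, as for 7.06% of all genes tested in this direction, yet the difference was small and did not pass (log2 difference -0.11 ± 0.04, SE; 95% interval -0.20 to -0.02, edgeR adjusted p = 0.0861). It passed without controls 3 and 4 (-0.12, edgeR adjusted p = 0.0449), with 1 surrogate variable (-0.13, adjusted p = 0.0289) and in DESeq2 (-0.11, adjusted p = 0.0467), and with the trend in length and GC content removed the log2 fold change was -0.03.

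Amotl1 (ENSMUSG00000013076.17, chromosome 9, 14541966 to 14645056, minus strand) and Amotl2 (ENSMUSG00000032531.15, chromosome 9, 102716672 to 102733418, plus strand) encode angiomotin-like scaffolds of cell junctions that bind YAP. Amotl1 had 306 to 345 CPM in the controls and 297 to 320.1 CPM with Areg, a log2 fold change of -0.03 (95% interval -0.12 to 0.07, edgeR adjusted p = 0.756). Amotl2 had 23.3 to 27.9 and 23.05 to 28.8 CPM (log2 fold change -0.03, 95% interval -0.18 to 0.12, edgeR adjusted p = 0.807). Both intervals leave out a fold change of the size seen for Ccn1. Ajuba (ENSMUSG00000022178.11, chromosome 14, 54567472 to 54577558, minus strand) encodes a LIM protein that binds LATS kinases. It had 4.51 to 6.48 and 3.94 to 5.20 CPM, the fewest reads of the 10 genes, from 45 to 97 estimated counts per library, and had a log2 fold change of -0.25 with a wide 95% interval of -0.53 to 0.04 (edgeR adjusted p = 0.221).

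The receptor gene Axl and the transmembrane protein gene Crim1 did not pass, and their groups overlapped. Axl (ENSMUSG00000002602.16, chromosome 7, 25757273 to 25788705, minus strand) encodes a TAM family tyrosine kinase receptor for GAS6. It had 247 to 269 CPM in the controls and 236 to 266 CPM with Areg, where Areg 3 at 266 CPM stood apart from the other 4 libraries at 236 to 239.9 CPM. The log2 fold change was -0.09 (95% interval -0.18 to 0.01, edgeR adjusted p = 0.192). Crim1 (ENSMUSG00000024074.8, chromosome 17, 78200248 to 78376592, plus strand) encodes a cysteine-rich protein that binds bone morphogenetic proteins. It had 282 to 333 and 306 to 323 CPM (log2 fold change 0.05, 95% interval -0.05 to 0.15, edgeR adjusted p = 0.501). With the trend in length and GC content removed it passed at 0.11 (adjusted p = 0.031), and on the TPM scales its log2 fold change was -0.11. Fez2 overlaps Crim1 on the opposite strand, and the strand setting of the counting is not given in the sources used here.

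Per length, Ccn2, Axl, Ccn1 and Crim1 were the highest of the 10 genes in the controls, at 133 ± 20.5, 130.4 ± 12.5, 128 ± 13.3 and 118 ± 12.4 TPM, neighbours that did not differ beyond their spread. Amotl1 followed at 69.6 ± 5.02 TPM and Lats2 at 45.1 ± 3.56 TPM. Amotl2 at 14.6 ± 3.38 and Ankrd1 at 11.5 ± 1.84 TPM again overlapped, and Ptpn14 at 5.54 ± 0.810 and Ajuba at 3.02 ± 0.663 TPM were lowest. With Areg, Ccn2 at 262 ± 42.5 TPM and Ccn1 at 200.3 ± 18.2 TPM stood above Axl at 121 ± 12.7 and Crim1 at 109 ± 5.17 TPM. Ankrd1, at 19.6 ± 1.99 TPM, then had a higher mean than Amotl2 at 13.5 ± 2.76 TPM, and their ranges met at 17.5 TPM.

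Kallisto divides reads between similar transcripts of a gene by estimation, and shares of minor transcripts varied widely between libraries. Ccn1 has 1 annotated transcript of 5 exons. The main Ccn2 transcript, with 5 exons and 2398 bases, held 97.3 to 98.4% of Ccn2 TPM in the controls and 97.2 to 98.2% with Areg, so the rise of Ccn2 was that of its main transcript. The main protein-coding transcript of Ankrd1, of 2020 bases, had 3.44 to 9.38 TPM in the controls and 12.2 to 16.4 TPM with Areg, without overlap, and held 38.9 to 68.7% and 55.6 to 89.4% of Ankrd1 TPM. The main Ptpn14 transcript had 3.34 to 4.58 TPM in the controls and 2.81 to 3.29 TPM with Areg, again without overlap. The main Lats2 transcript held 86.6 to 92.0% and 82.8 to 91.2%, and that of Axl 51.1 to 78.7% and 52.9 to 76.3%. For Ajuba, a retained intron form was assigned 4.35 to 47.2% in the controls and 13.1 to 62.6% with Areg, a spread too wide to order the groups.

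The genes of YAP, TAZ, the TEAD factors and their Vgll cofactors did not pass. Of 10 genes in this list, 8 were tested and 0 were called (median -0.01), against 16.7% of all genes tested. Vgll1 and Vgll2 had 0 counts in all libraries. Yap1 had 108 ± 7.87 CPM in the controls and 109 ± 2.43 CPM with Areg (log2 fold change 0.01, 95% interval -0.10 to 0.12). Wwtr1, which encodes TAZ, had 454 ± 18.3 and 449.7 ± 16.2 CPM (-0.01, 95% interval -0.11 to 0.08). Tead1 had 415 ± 27.8 and 412 ± 12.2 CPM (-0.01). Tead2 (-0.13), Tead3 (-0.27), Tead4 (0.12), Vgll3 (-0.58, at 1.54 ± 0.270 and 1.02 ± 0.351 CPM) and Vgll4 (0.03) had edgeR adjusted p of 0.101 to 0.801. At an unadjusted p under 0.05 there were 2 of the 8, Tead3 and Vgll3, against 31.4% of all genes tested, and DESeq2 called 0 of the 7 to which it gave an adjusted p (not Vgll3). Tead2, which did not pass in the reported fit, was called lower in limma on log2(TPM + 1) (-0.40, adjusted p = 0.0362).

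Of 26 Hippo kinases and upstream regulators, all tested, 3 rose, 3 fell and 20 did not pass, with a median log2 fold change of 0.03. Beside these counts, 8.34% of all genes tested were called higher and 8.32% lower. Stk3, which encodes the kinase MST2 upstream of the LATS kinases, rose from 114 ± 13.7 to 147 ± 7.19 CPM (edgeR adjusted p = 0.0027, log2 difference 0.37) and passed in all 25 alternatives, with 0.21 as the smallest log2 difference. Rassf1, a partner of that kinase (log2 fold change 0.17), and the kinase Map4k4 (0.15) rose. The protocadherin gene Dchs1 fell (-0.33), as did Strn (-0.28), whose product belongs to a phosphatase complex that opposes the kinase chain. Without controls 3 and 4, Map4k4 (0.10, edgeR adjusted p = 0.0849) was not called. Leaving out 1 library ended the call of Rassf1 for Areg 2 or 4 (edgeR adjusted p = 0.0574 to 0.0608) and of Map4k4 for controls 3, 4 or 5 or Areg 2, 3, 4 or 5 (0.0695 to 0.126). Dchs1, at -0.08 with the trend in length and GC content removed, was then not called, and Rassf1 and Strn were not called in limma on log2(TPM + 1) (adjusted p = 0.112 and 0.151).

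Other genes reported as YAP and TEAD targets moved in both directions, with 5 of 27 tested higher, 2 lower and 20 not passing. Their median was 0.10, and over all genes tested 8.34% were called higher and 8.32% lower. F3, whose product tissue factor starts blood clotting, was higher at 51.02 ± 1.76 CPM, against 29.9 ± 1.19 CPM in controls (edgeR adjusted p = 1.37e-07). Thbs1, which encodes the matricellular protein thrombospondin, rose by log2 0.59 and Arhgap29 by 0.32. Nt5e passed narrowly at 0.24 (edgeR adjusted p = 0.0465), and its groups overlapped. Arhgap29 was not called in limma on log2(TPM + 1) (0.27, adjusted p = 0.0727). Gadd45a (-0.16) and Arhgef17 (-0.26) fell. Arhgef17 was not called without controls 3 and 4 (-0.15, edgeR adjusted p = 0.1), without control 4 or without Areg 2, 4 or 5 (0.052 to 0.0787), nor Gadd45a without control 2 or Areg 2, 3 or 4 (0.0554 to 0.0787). Igfbp3 and Myof were among those that did not pass, with log2 differences of 0.01 and 0.02.

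Among paralogs and binding partners of the 10 genes, 1 of 17 tested was higher, 2 were lower and 14 did not pass. The shares over all genes tested were 8.34% higher and 8.32% lower. Ccn4 had 6.09 ± 1.08 and 7.92 ± 0.632 CPM and missed the threshold (edgeR adjusted p = 0.051, log2 difference 0.36), while the family members Ccn3, Ccn5 and Ccn6 had means under 1 CPM. Itgb3, an integrin subunit for CCN proteins, rose (0.22) and Itgb5 fell (-0.29). Lrp1, an endocytic receptor that binds CCN2, fell from 892 ± 73.8 to 677 ± 38.4 CPM (-0.40, edgeR adjusted p = 0.000394). With the trend in length and GC content removed, Lrp1 was at -0.14 and Itgb5 at -0.15. Lrp1 passed in all 25 alternatives and Itgb5 in 24 of them. Itgb3 was not called in limma on log2(TPM + 1) (0.19, adjusted p = 0.175). Lats1 (0.09), Amot (0.06), Limd1 (0.00) and Mertk (-0.10) did not pass.

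SRF and actin-linked genes, which share some targets with YAP, had 5 of 17 tested genes higher, 1 lower and 11 not passing. Their median was 0.13, and of all genes tested 8.34% were called higher and 8.32% lower. Cnn2 (0.39), Vcl (0.21), Filip1l (0.22) and Tagln (0.18) rose, and Mrtfa, a co-activator of SRF, fell (-0.27), while Srf itself, at 0.22, missed the threshold (edgeR adjusted p = 0.167). None of these 5 calls was kept in limma on log2(TPM + 1), where Cnn2 had 0.26 (adjusted p = 0.0684) and Vcl 0.10 (adjusted p = 0.376), or with the transcript length offset, where they had 0.30 (adjusted p = 0.0529) and 0.13 (adjusted p = 0.165). Mrtfa was not called without controls 3 and 4 (-0.14, edgeR adjusted p = 0.157). Leaving out 1 library ended the call of Filip1l for control 1 or Areg 2, 4 or 5 (edgeR adjusted p = 0.0513 to 0.0956), of Tagln for control 1 or 5 or Areg 2, 4 or 5 (0.06 to 0.099) and of Mrtfa for control 3 or 4 or Areg 2, 4 or 5 (0.0563 to 0.0737).

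The genes whose profiles over the 10 libraries were most like those of Ccn1, Ccn2 and Ankrd1 were found by the root mean square difference of log2 CPM, each gene centred on its mean, among 12017 genes and leaving out the 10 genes themselves. For Ccn1 these were Tmem252 (difference 0.07), the transcription factor gene Egr2 (0.08) and the metalloproteinase gene Adam19 (0.08). Serpinb2 (0.14), Ch25h (0.17) and Rgs16 (0.17) came first for Ccn2, and Lif (0.13), Egr3 (0.13) and Egr2 (0.14) for Ankrd1. Among the 3 themselves, the difference was 0.13 between Ccn1 and Ankrd1, 0.16 between Ccn2 and Ankrd1 and 0.20 between Ccn1 and Ccn2. Ccn1 was slightly nearer to Ankrd1 than Egr2 was, but Lif and Egr3 were nearer still. Ankrd1 was nearer to Ccn2 than Ch25h was, but Serpinb2 was nearer still. All 3 genes listed for Ccn2 were nearer to it than Ccn1 was. Likewise, all 3 genes listed for Ccn1 were nearer to it than Ankrd1 or Ccn2. The 8 genes listed from outside the 10 were all called higher with Areg, which the measure favours because it includes the difference between the groups.

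The rises of Ccn1, Ccn2 and Ankrd1 passed in all 25 alternatives, with log2 fold changes of 0.62 to 0.81, 0.91 to 1.11 and 0.73 to 0.96. Amotl1, Amotl2, Axl and Ajuba passed in 0 of 25.

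**Figure D5:**
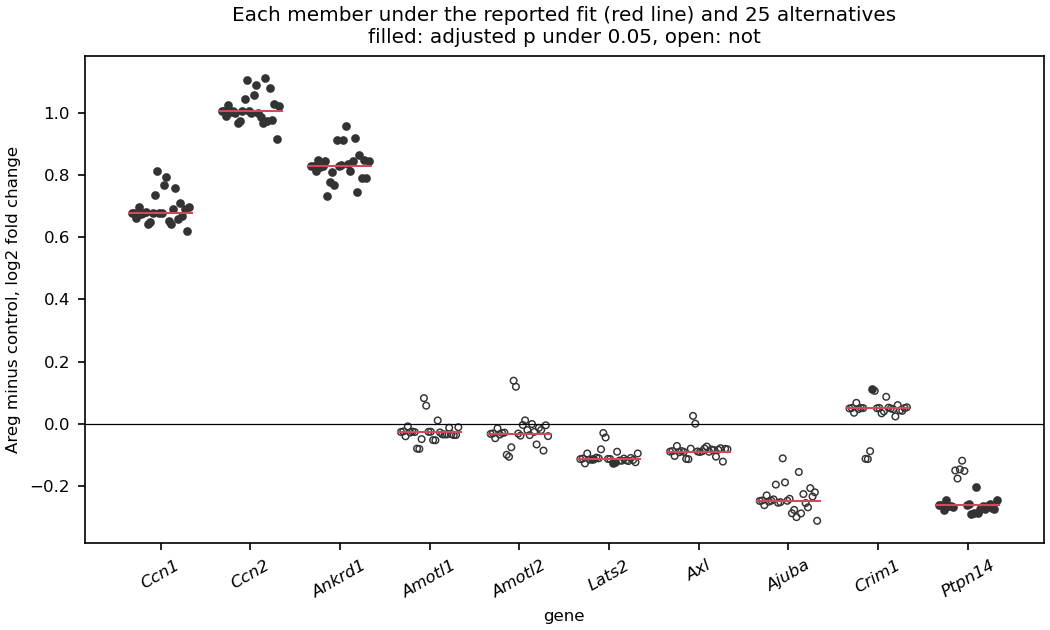
Log2 fold change, Areg minus control, of each gene in the reported fit (red line) and with the 25 alternatives beside it (points, filled where the adjusted p was under 0.05). Points for Ccn1, Ccn2 and Ankrd1 are filled and lie above 0.6, while those of Ptpn14 include 5 open ones nearer to 0.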

How the data were processed

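Poly-A libraries of 10 samples were made with TruSeq chemistry, per the labels' protocols. Each deposited file holds kallisto's estimated counts, which are not all whole numbers, for 118489 transcripts, per the file headers. The authors also deposited TPM, scaled by kallisto to effective length, and lengths in bases. Tools listed in the submitters' processing notes are bcl2fastq 2.19, kallisto 0.44.0 and DESeq2, with the build GRCm38.p6. Neither strand setting nor transcript set is stated there.

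GENCODE M21 (GRCm38) matched 116816 transcripts. The 1673 others held 0.736 to 0.778% of estimated counts and were left out. Counts were summed over 36047 genes, rounded, filtered (filterByExpr, minimum count 10, minimum total 15) and compared by edgeR 4.0.16's quasi-likelihood test in R 4.3.3, with TMM factors, no covariates and Benjamini-Hochberg adjustment over 13362 genes. Each SE was derived from the test's F value. No pair of replicates agreed within counting noise (chi-square of 3.77 to 49.7 per degree of freedom). On simulated data for this comparison (13362 genes) the test recovered 38.5% of 1.25-fold, 77.0% of 1.5-fold and 89.8% of 2-fold changes. Of the calls made there, 5.67% were false. The simulation drew each gene on its own, without deviations that the genes of a library share. Recovery and the share of false calls in the real libraries may therefore differ and were not tested.

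The members and lists were chosen with earlier results of these data known. Named genes are the 10 members, the tested YAP and TEAD factor genes up to 4 genes called in each direction per list and the 3 profiles nearest to each of Ccn1, Ccn2 and Ankrd1. Srf, Nt5e, Spp1, Igfbp3, Myof, Ccn4 and the paralogs named without a call were chosen after their values were seen. Alternatives used DESeq2 1.42.0, limma 3.58.1 and sva 3.50.0, and pseudocounts of 1 and 0.1 for log2 TPM. The planned description of protein motifs was not run. Some genes that the rule names are counted but not reported here.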

Additional observations from a re-analysis of the deposited data

Results flagged for a closer look

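In some groups of 5 libraries, 1 library stood apart by Dixon's criterion, which chance meets in about 1 of 20 groups. It was met in 7 of 76 groups tested. Ccn2 had 234.1 CPM in control 4 against 161 to 178 CPM in the other controls. Control 1 was high for Amotl1 (345.5 CPM against 306 to 312), Lats2 (137.1 CPM against 127 to 129) and Ptpn14 (31.31 CPM against 25.6 to 27.02). Without control 1 the log2 fold change of Ptpn14 was -0.20 and the call was kept. Axl had 266.1 CPM in Areg 3 against 236 to 239.9 CPM. Cnn2 had 35.75 CPM in control 4 against 26.2 to 28.2 CPM, and 40.84 CPM in Areg 4 against 37.1 to 37.7 CPM.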

How the results depend on the processing

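The count of 4 called members was 3 to 5 in the 25 alternatives and 4 without each library in turn. The count of all called genes, 2226, was 856 and 868 on the log2(TPM + 1) and log2(TPM + 0.1) scales and 1149 with a transcript length offset, and lay between 1364 (without Areg replicate 2) and 2314 without each library in turn. Higher calls made up 50.04% of all calls, and 37.6%, 37.4% and 61.1% on the 2 TPM scales and with the trend in length and GC content removed. Arhgef17 turned to 0.0327 with that trend removed and controls 3 and 4 left out. The longer motif lowered the promoter count from 8 to 4 genes. Tead2 passed, at -0.41 to -0.39, on the TPM scales and with the length offset, and Tead4, at 0.31, with the trend removed and controls 3 and 4 left out. The cause of these changes was not tested. With the replicate number as a block, 2357 genes and 4 members were called and no member changed its call. The labels do not say whether same-numbered libraries share more than a number. Correlations of their deviations were -0.05 to 0.14, and 2 of 5 correlated best with their own number. Weak correlations over all genes cannot decide whether such libraries share an animal or a batch. Ajuba, with 45 to 97 counts, and Ankrd1, with 128 to 472, have the least depth.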
